A study of Mus musculus with 10 samples.

Results

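The 10 methylation-sensitive germline genes described here were followed through 7 libraries of mouse embryonic stem cells: Hormad1, Sycp3, Ddx4, Mael, Fkbp6, Stk31, Dazl, Aurkc, Tex101 and Rpl10l. They were picked by symbol from a table of 54456 genes, with earlier results of these data known, and all 10 were in the table and passed the filter on low values. Their levels were highest in the wild-type library for 8 of the 10, as they were for 19% of all tested genes. In 5 of the 10, both libraries of the line conv-dSVA_D lay below the other 5 libraries, where 9.66% of all tested genes did.

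The study rebuilt part of the Taf1 locus in C57BL/6J stem cells with a human-derived, partly mouse-adapted segment, to model X-linked dystonia parkinsonism, a disease tied to an SVA retrotransposon insertion in TAF1. In the table the wild-type line, MK6, has 1 library, while 2 libraries stand for each converted line: conv-dSVA_F, conv-dSVA_D, conv-dSVA_F&D. The labels give every converted line a loxP site at Taf1_i24, the plasmids pSpCas9 and pSpCas9GFP, the cassette LPSwapinRed_pUC19 at Taf1_3_4, the allele Taf1_humanization_hTAF1 with the terms mousified and converted, and the Cre plasmid pCAGiCre. The allele name carries SVAdel in conv-dSVA_F, dSVA2 in conv-dSVA_D and both terms in conv-dSVA_F&D. The wild type carries none of these, so each comparison with it changes all of them at once. The cells grew on gelatin in serum with LIF and inhibitors of GSK3 (CHIR99021) and of MEK (PD0325901). One line name stands for each genotype and no clone is named, so genotype and line cannot be told apart. The other 3 of the 10 samples of the series were not analysed here.

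These genes are silent in most body tissues. Many germline genes have promoters rich in CpG sites that become methylated in the early embryo, and loss of DNA methylation alone can turn several of them on, which is why they are called methylation-sensitive. In embryonic stem cells many germline genes are also held down by PRC1.6. This is a Polycomb complex brought to DNA by MGA with MAX, which bind the E-box, and by E2F6 with its DP partner. Stem cells grown with inhibitors of GSK3 and MEK have low DNA methylation, and low levels of germline transcripts are common there. DNA methylation and factor binding were not analysed here.

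Promoter sequences from RefSeq (GRCm38.p6, the mm10 assembly) matched all 10 genes, with 13 annotated start sites, each given as 300 bases from 250 before the start. The E-box, CACGTG on both strands, was in 9 of the 13 promoters and 6 of the 10 genes: Hormad1, Sycp3, Ddx4, Mael, Fkbp6 and Stk31. Of all 32851 promoters 7.15% held it, and of the 13871 promoters of tested genes 9.8%. The E2F6-type motif, TCCCGC or its complement GCGGGA, was in 6 of the 13 and in 5 genes (Hormad1, Sycp3, Ddx4, Mael and Rpl10l), against 34.7% of the promoters of tested genes. No E-box overlapped an E2F6-type motif in these promoters. Dazl, Aurkc and Tex101 held neither in this window, which says only that these letters are not there. A match is a run of letters, not evidence of binding.

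The 250 bases before the first listed start site are printed for 6 genes, 5′ to 3′ on the gene's strand, with E-box and E2F6-type motifs in capitals. Hormad1, Fkbp6 and Stk31 are shown because they differed between conv-dSVA_F and conv-dSVA_D, Aurkc and Rpl10l because they differed from the wild type, and Dazl because it had the widest spread between replicates.
Hormad1, chr3:95559427-95559676, plus strand: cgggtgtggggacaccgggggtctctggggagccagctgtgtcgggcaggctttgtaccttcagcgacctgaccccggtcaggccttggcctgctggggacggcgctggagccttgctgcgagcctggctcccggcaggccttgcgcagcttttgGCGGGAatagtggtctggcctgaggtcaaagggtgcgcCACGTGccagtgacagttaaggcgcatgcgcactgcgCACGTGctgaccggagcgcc
Fkbp6, chr5:135350045-135350294, minus strand: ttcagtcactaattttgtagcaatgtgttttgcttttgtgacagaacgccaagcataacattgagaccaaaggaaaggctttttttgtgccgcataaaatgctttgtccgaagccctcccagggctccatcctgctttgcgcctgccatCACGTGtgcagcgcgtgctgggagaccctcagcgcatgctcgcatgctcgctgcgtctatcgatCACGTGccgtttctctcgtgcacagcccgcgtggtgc
Stk31, chr6:49395289-49395538, plus strand: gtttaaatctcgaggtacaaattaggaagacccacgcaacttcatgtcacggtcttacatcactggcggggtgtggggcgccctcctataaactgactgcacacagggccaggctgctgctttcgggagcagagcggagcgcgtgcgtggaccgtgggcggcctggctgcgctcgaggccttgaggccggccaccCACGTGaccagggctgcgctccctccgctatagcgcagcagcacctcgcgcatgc
Dazl, chr17:50293621-50293870, minus strand: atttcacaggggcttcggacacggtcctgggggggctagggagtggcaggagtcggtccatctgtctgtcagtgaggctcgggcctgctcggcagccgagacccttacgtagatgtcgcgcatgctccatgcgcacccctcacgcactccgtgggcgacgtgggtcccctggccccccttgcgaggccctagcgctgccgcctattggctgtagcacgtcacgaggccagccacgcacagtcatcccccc
Aurkc, chr7:6995135-6995384, plus strand: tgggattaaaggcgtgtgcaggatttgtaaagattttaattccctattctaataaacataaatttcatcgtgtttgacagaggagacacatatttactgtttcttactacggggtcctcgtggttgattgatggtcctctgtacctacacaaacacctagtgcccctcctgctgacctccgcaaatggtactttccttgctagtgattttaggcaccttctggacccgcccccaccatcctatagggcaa
Rpl10l, chr12:66284402-66284651, minus strand: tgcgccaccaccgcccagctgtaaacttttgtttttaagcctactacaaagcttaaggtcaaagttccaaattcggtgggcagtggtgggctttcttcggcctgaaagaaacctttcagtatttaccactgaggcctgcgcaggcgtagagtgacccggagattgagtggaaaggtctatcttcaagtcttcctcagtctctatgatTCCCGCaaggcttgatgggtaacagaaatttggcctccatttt

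The Hormad1 sequence has an E2F6-type motif from 95 bases before the start and E-boxes from 57 and 20 bases before it. In Fkbp6 the E-boxes begin at -101 and -37 from the start, and in Stk31 the single one begins at -55. Rpl10l has 1 E2F6-type motif, 43 bases before. CpG number varied widely within the 300-base promoters: Ddx4 had 38, Dazl 28, Hormad1 and Mael 24 each, and Aurkc only 6. The median was 24 over the 13 promoters of these genes, 20 over the promoters of tested genes and 7 over all promoters. Aurkc was the only 1 of the 10 below the median of all promoters.

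**Figure D1:**
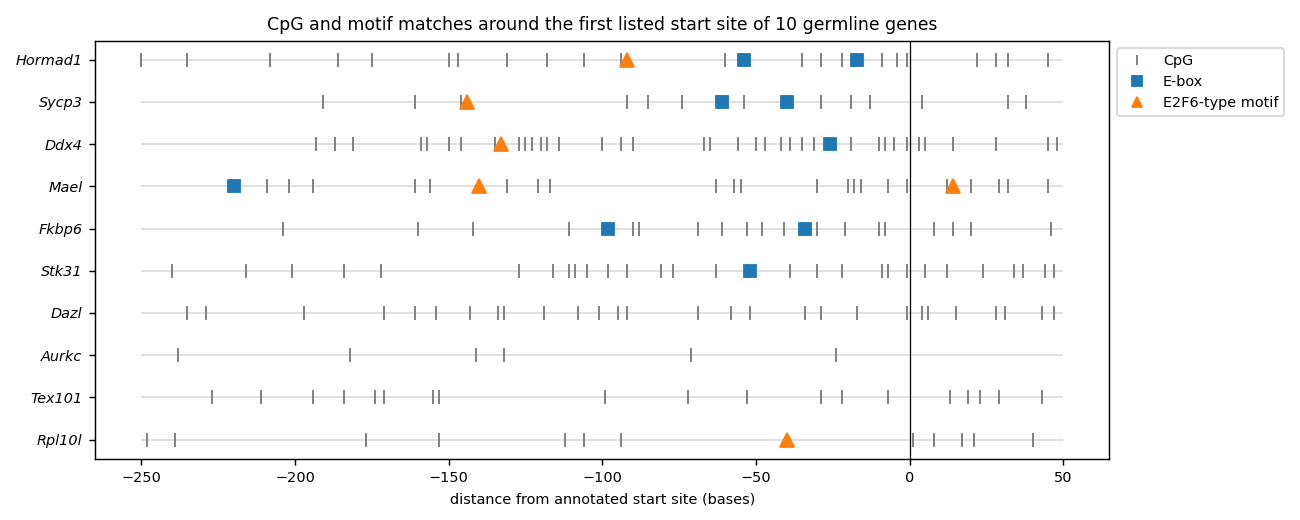
Distance in bases from the first listed start site (x axis, start at 0) of CpG sites (grey ticks), E-boxes (blue squares) and E2F6-type motifs (orange triangles) in 10 germline genes (rows). Hormad1, Sycp3, Ddx4 and Mael hold both motifs, and Aurkc holds neither and has 6 CpG sites.

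Each library had 16588467 to 26562418 reads assigned to genes. Taf1, the edited gene, stood at 2898 normalized counts in the wild type and between 362 and 1116 in the 6 converted libraries. Stem cell identity was checked with 7 pluripotency markers, none below 1897 normalized counts in any library. Differences of these markers between the lines are given further on. Markers of spermatids summed to 8.12 or less in each library, with 7 or all 8 genes at 0.

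Levels between genes were compared per length, as reads per kilobase of exon scaled to the assigned reads (RPKM). In the wild type Rpl10l was highest (72.4 RPKM), followed by Dazl (38.2), Hormad1 (32.6), Fkbp6 (16.5) and Aurkc (11.97). Mael (8.71), Stk31 (8.67), Sycp3 (6.43) and Ddx4 (3.51) were lower, and Tex101 was last (1.59). Mean levels in conv-dSVA_D ran from 37.3 for Rpl10l and 12.3 for Hormad1 to 2.00 for Ddx4 and 0.303 for Tex101. With 1 wild-type library, the order of neighbours there has no replicate check. In bulk RNA, fewer cells with a transcript and less transcript in each cell cannot be told apart.

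All later levels are normalized counts, reads divided by the authors' size factor of each library. Differences are log2 values of a limma fit to all 15240 genes with a mean of at least 10, after adding 1, ± the standard error. A gene was called at a Benjamini-Hochberg adjusted p under 0.05 over all of these genes. The comparisons share libraries, so the same library enters several of them, and the labels do not say whether replicates were separate cultures. The p-values then measure no more than how far these samples spread, possibly for technical reasons.

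Hormad1 and Sycp3 encode proteins of the meiotic chromosome axis, where homologous chromosomes pair. Hormad1 (chromosome 3, 95559677 to 95587671, GRCm38) stood at 1309 in the wild type, 959 and 863 in the conv-dSVA_F pair, 461 and 460.45 in that of conv-dSVA_D, and 773 and 999 in that of conv-dSVA_F&D. The conv-dSVA_D pair was thus below every other library, at 35.2% of the wild type on average. Of its 50-base windows 27.2% also occur in the predicted genes Gm15529 and Gm7167, which stood at 12.8 or less. Relative to conv-dSVA_D, Hormad1 was higher by 0.98 ± 0.16 in conv-dSVA_F (adjusted p = 0.0268, limma) and by 0.93 ± 0.16 in conv-dSVA_F&D (adjusted p = 0.0201). Its difference between conv-dSVA_F&D and conv-dSVA_F was -0.05 ± 0.16 (adjusted p = 0.892). Against the wild type the converted mean was -0.87 ± 0.18 (adjusted p = 0.0519), which was not called. It was called with a pseudocount of 5 (adjusted p = 0.0442), with edgeR (0.034), with DESeq2 (0.00202) and without either conv-dSVA_F&D library, and adjusted p ranged up to 0.276, without a variance trend.

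Sycp3 (chromosome 10) went another way. Its levels were 189 in the wild type, 88.5 and 108 in the conv-dSVA_F pair, 149 and 137 in that of conv-dSVA_D, and 187 and 116 in that of conv-dSVA_F&D. Here conv-dSVA_F held the lowest libraries and conv-dSVA_D lay within the range of conv-dSVA_F&D. No comparison of Sycp3 passed, the smallest adjusted p being 0.325. Its exons overlap those of Chpt1 on the opposite strand, which stood at 378 to 607.

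Ddx4, Mael, Fkbp6 and Stk31 belong to the germ granule and the piRNA pathway, which silences transposons in germ cells. Ddx4 (Vasa), an RNA helicase on chromosome 13, stood at 246 in the wild type, 299.5 and 203 in the conv-dSVA_F pair, 133 and 127 in that of conv-dSVA_D, and 239 and 311 in that of conv-dSVA_F&D. Only the conv-dSVA_D pair lay below all other libraries. The difference of Ddx4 was 1.06 ± 0.27 for conv-dSVA_F&D minus conv-dSVA_D (adjusted p = 0.0633) and 0.92 ± 0.27 for conv-dSVA_F minus conv-dSVA_D (adjusted p = 0.129). Neither passed with limma, and both did with DESeq2 on the recovered reads.

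Fkbp6, a co-chaperone of piRNA loading on chromosome 5, stood at 673 in the wild type, 767 and 582 in the conv-dSVA_F pair, 185 and 266 in that of conv-dSVA_D, and 587 and 361 in that of conv-dSVA_F&D. The conv-dSVA_F libraries lay on both sides of the wild type, and conv-dSVA_D was lowest. Fkbp6 was higher in conv-dSVA_F than in conv-dSVA_D by 1.58 ± 0.27 (adjusted p = 0.029), the largest difference of the 10 genes in this comparison. The value for conv-dSVA_F&D minus conv-dSVA_D was 1.05 ± 0.27 (adjusted p = 0.0696), and 1.40 without conv-dSVA_F&D replicate 2 (adjusted p = 0.039).

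Stk31, a Tudor-domain protein with a kinase-like part, lies on chromosome 6 (49395604 to 49469501). It stood at 652 in the wild type, 559 and 431 in the conv-dSVA_F pair, 202 and 242 in that of conv-dSVA_D, and 342 and 254 in that of conv-dSVA_F&D. The 3 converted groups did not overlap in this gene, with conv-dSVA_F highest and conv-dSVA_D lowest. Stk31 was higher in conv-dSVA_F than in conv-dSVA_D by 1.15 ± 0.23 (adjusted p = 0.0446). Chromosome 6 as a whole had median log2 differences from the wild type of 0.41 and 0.38 in conv-dSVA_F, 0.12 in both conv-dSVA_D libraries, and 0.01 and -0.01 in conv-dSVA_F&D. With chromosome medians set equal, the Stk31 difference was 0.87 and the call was lost (adjusted p = 0.0966).

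Mael (Maelstrom), a piRNA factor on chromosome 1, stood at 350.4 in the wild type, 192 and 177 in the conv-dSVA_F pair, 191 and 117 in that of conv-dSVA_D, and 290.2 and 262 in that of conv-dSVA_F&D. Both conv-dSVA_F&D libraries exceeded the 4 libraries of conv-dSVA_F and conv-dSVA_D. The difference of 0.88 ± 0.27 for conv-dSVA_F&D minus conv-dSVA_D (adjusted p = 0.112) and that of 0.58 ± 0.27 for conv-dSVA_F&D minus conv-dSVA_F (adjusted p = 0.262) did not pass.

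Dazl, an RNA-binding regulator of translation that marks the commitment of germ cells, lies on chromosome 17. It stood at 3391 in the wild type, 1693 and 1358 in the conv-dSVA_F pair, 914 and 832 in that of conv-dSVA_D, and 2217 and 809 in that of conv-dSVA_F&D. Every converted library was below the wild type, and the conv-dSVA_F&D pair spanned the full converted range. The lower library, conv-dSVA_F&D replicate 2, had the fewest assigned reads of all (16588467). It had 19428 genes above 0, against 21560 to 22943 in the others. Its chromosome 18 median log2 difference from the wild type was 0.49, against -0.02 in replicate 1. The part of these features in the Dazl level was not tested. No comparison of Dazl passed with all libraries. Its difference for conv-dSVA_F&D minus conv-dSVA_D was 0.62 ± 0.36 (adjusted p = 0.376), became 1.34 without conv-dSVA_F&D replicate 2 (adjusted p = 0.0122), and -0.11 without its replicate 1 (adjusted p = 0.756). The converted mean differed from the wild type by -1.49 ± 0.39 (adjusted p = 0.0878).

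Aurkc, the Aurora kinase of meiotic divisions, lies on chromosome 7 (6995300 to 7003091). It stood at 423 in the wild type, 75.7 and 76.2 in the conv-dSVA_F pair, 112 and 122 in that of conv-dSVA_D, and 367 and 267 in that of conv-dSVA_F&D. Both conv-dSVA_F and conv-dSVA_D were low and did not overlap each other, and conv-dSVA_F&D lay between them and the wild type. In conv-dSVA_F&D, Aurkc exceeded conv-dSVA_F by 2.03 ± 0.26 (adjusted p = 0.0114) and conv-dSVA_D by 1.41 ± 0.26 (adjusted p = 0.026). Its converted mean was lower than the wild type (-1.58 ± 0.29, adjusted p = 0.0408), and all 6 converted libraries were lower. Of the 1352 windows of 50 bases in its longest transcript, 861 also occur in transcripts of 10 predicted genes. All 10 stood at 13.7 or less in every library. The sources used here do not say how the authors' counting treated reads that fit several such copies, and the level of Aurkc is uncertain to that extent.

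Tex101, a surface glycoprotein of germ cells on chromosome 7, was the least abundant. It stood at 61.1 in the wild type, 32.3 and 20.3 in the conv-dSVA_F pair, 8.64 and 13.1 in that of conv-dSVA_D, and 35.7 and 29.2 in that of conv-dSVA_F&D. The order of groups followed that of Hormad1 in that conv-dSVA_D was lowest and the wild type highest. Its difference of 1.52 ± 0.58 for conv-dSVA_F&D minus conv-dSVA_D did not pass (adjusted p = 0.182), with 9 reads in conv-dSVA_D replicate 1.

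Rpl10l, an intronless autosomal copy of the X-linked ribosomal protein gene Rpl10 that serves meiotic cells, lies on chromosome 12 (66283379 to 66284401). It stood at 1719 in the wild type, 822 and 935 in the conv-dSVA_F pair, 862 and 785 in that of conv-dSVA_D, and 664 and 564 in that of conv-dSVA_F&D. All 6 converted libraries lay between 32.8% and 54.4% of the wild type. The converted mean was lower by -1.17 ± 0.16 (adjusted p = 0.0235), and the differences among converted groups did not pass (-0.43 ± 0.15 for conv-dSVA_F&D minus conv-dSVA_D, adjusted p = 0.154). Rpl10 itself was 25624 in the wild type and 12711 to 19622 in the converted libraries (-0.70 ± 0.13, adjusted p = 0.0425). No 50-base window of the Rpl10l transcript occurs in an annotated Rpl10 transcript, and 7.6% occur in the predicted gene Gm14460, which had at most 1.09 normalized counts.

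**Figure D2:**
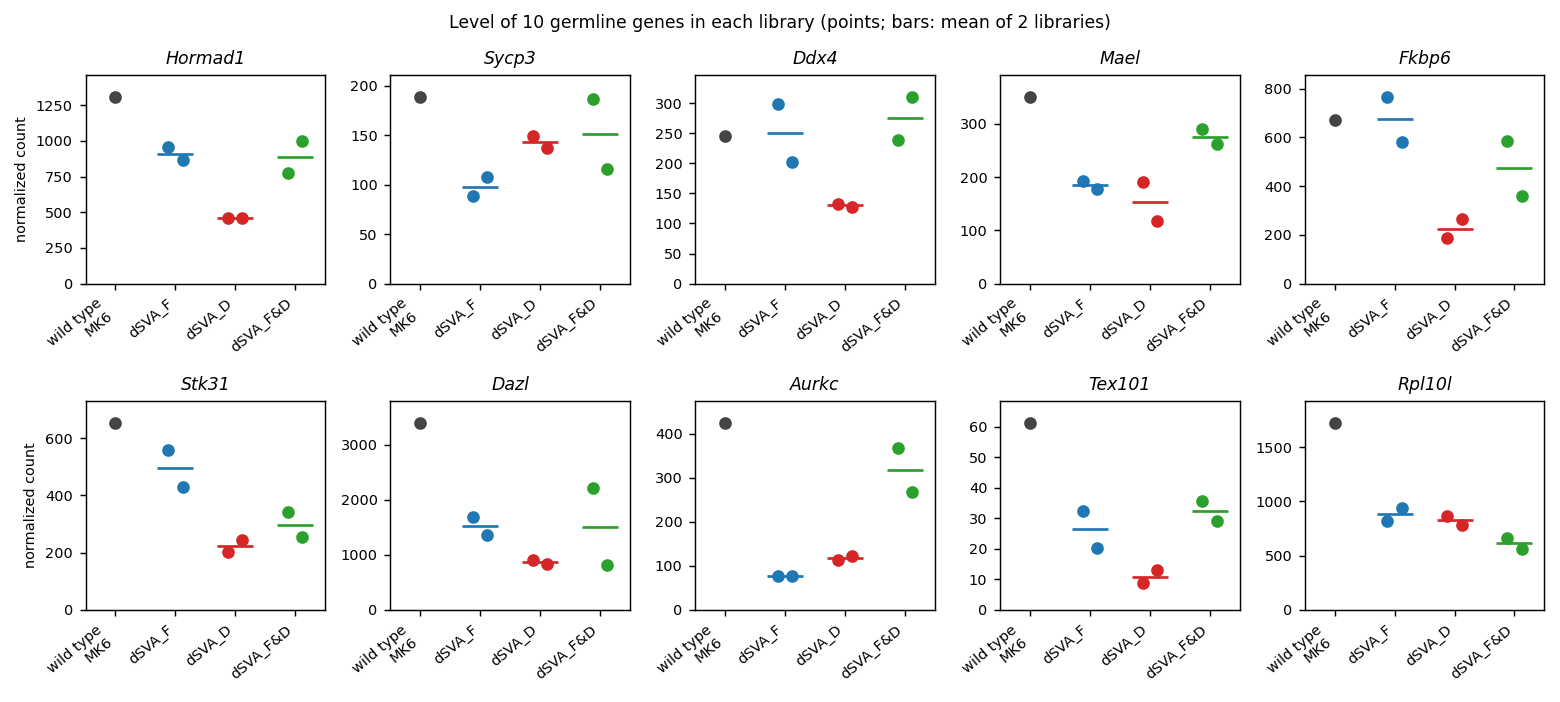
Normalized count (y axis, from 0) of 10 germline genes in the wild-type library and in the 2 libraries of each converted line (points, with bars at the mean of 2). The wild type is highest in 8 panels (19% of all tested genes). Both conv-dSVA_D points are lowest in Hormad1, Ddx4, Fkbp6, Stk31 and Tex101 (9.66% of all tested genes).

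For conv-dSVA_F&D minus conv-dSVA_D, Hormad1 and Aurkc were called, both higher. That is 2 of the 10, against 3.16% of all tested genes in either direction, 1.96% higher and 1.21% lower. At an unadjusted p under 0.05 there were 7 of the 10, against 19.8% of all. The difference was above 0 in 9 of the 10 and below 0 in Rpl10l, against 49.7% and 50.3% of all. The median difference was 0.90 over the 10 and -0.00 over all tested genes, and both conv-dSVA_F&D libraries exceeded both conv-dSVA_D libraries in 7 of the 10, against 25.1% of all. The exceptions were Dazl, Sycp3 and Rpl10l, and Rpl10l had them below, against 24.8%. Leaving out either conv-dSVA_D library, limma called none of the 10 (5 without replicate 1 and 6 without replicate 2 had an unadjusted p under 0.05). It also called none without a variance trend or a low-value filter (7 unadjusted each), settings in which no gene at all was called for this comparison. EdgeR called 2 and DESeq2 4, and their counts over all genes are given at the end. Without conv-dSVA_F&D replicate 1 the calls were Hormad1 and Ddx4, and without its replicate 2 they were Fkbp6, Dazl and Aurkc.

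Between conv-dSVA_F and conv-dSVA_D, 3 of the 10 were called, all higher in conv-dSVA_F, against 1.35% of all tested genes in either direction, 1.08% higher and 0.262% lower. They were Hormad1, Fkbp6 and Stk31. The median was 0.86 over the 10 and -0.01 over all genes. Values were above 0 in 8 of the 10 and below 0 in 2, against 49% and 51% of all, and 5 had an unadjusted p under 0.05, against 16.7%. In 6 of the 10 both conv-dSVA_F libraries exceeded both of conv-dSVA_D, against 26.4% of all, and in Sycp3 and Aurkc both were lower, against 25.6%. All 3 calls were lost with limma on leaving out any 1 of the 4 libraries compared (3 or 4 members at unadjusted p under 0.05), without a variance trend (6) and without a low-value filter (6). DESeq2 called 4 and edgeR 3. Without the trend or the filter limma called almost no gene at all in this comparison.

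For conv-dSVA_F&D minus conv-dSVA_F, Aurkc was the only 1 of the 10 called, and it was higher, against 3.92% of all tested genes in either direction, 1.71% higher and 2.21% lower. The median was 0.05 over the 10 and -0.01 over all genes. Values were above 0 in 5 of the 10 and below 0 in 5, against 48.9% and 51.1% of all, and 3 had an unadjusted p under 0.05, against 20.7%. Stk31 (-0.74 ± 0.23, adjusted p = 0.107) and Rpl10l (-0.52 ± 0.15, adjusted p = 0.0905) had both conv-dSVA_F&D libraries below both conv-dSVA_F libraries, against 25.5% of all, and Mael, Sycp3 and Aurkc had them above, against 23.8%. Without conv-dSVA_F replicate 1, Aurkc was no longer called with limma (difference 2.03, adjusted p = 0.119), which left no call and 2 of the 10 at an unadjusted p under 0.05. The call was also lost, with every other limma call of this comparison, without a low-value filter and without a variance trend (3 unadjusted each). It was made by edgeR and DESeq2. Dazl was called lower without conv-dSVA_F&D replicate 1 (-0.90, adjusted p = 0.0255).

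Against the wild type, 2 of the 10 were called, Aurkc and Rpl10l, both lower in the converted lines, where 1.15% of all tested genes were called in either direction, 0.525% lower and 0.623% higher. The difference was below 0 for all 10 genes, against 51.2% of all tested genes, while 48.8% were above 0. At an unadjusted p under 0.05 there were 8 of the 10, against 18.7%. Its median was -0.95 over the 10 and -0.01 over all. In 8 of the 10 every converted library lay below the wild type, against 19% of all genes, and none had every converted library above it, against 18.8%. The exceptions were Ddx4 and Fkbp6, and even these were higher in the wild type than in both conv-dSVA_D libraries, as were all 10 and 40.9% of all genes. This comparison rests on 1 wild-type library, which is assumed to vary like the converted groups. Counts over all genes in each setting are given at the end. The count was 5 (Hormad1, Stk31 and Dazl added) without either conv-dSVA_F&D library, 4 with edgeR and with DESeq2 (Hormad1 and Stk31 added), 3 with a pseudocount of 5 (Hormad1 added), 1 (Rpl10l) without conv-dSVA_F replicate 1, and 0 with limma without a variance trend (7 at unadjusted p under 0.05), conv-dSVA_F replicate 2 (6), conv-dSVA_D replicate 1 (6) or its replicate 2 (8).

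**Figure D3:**
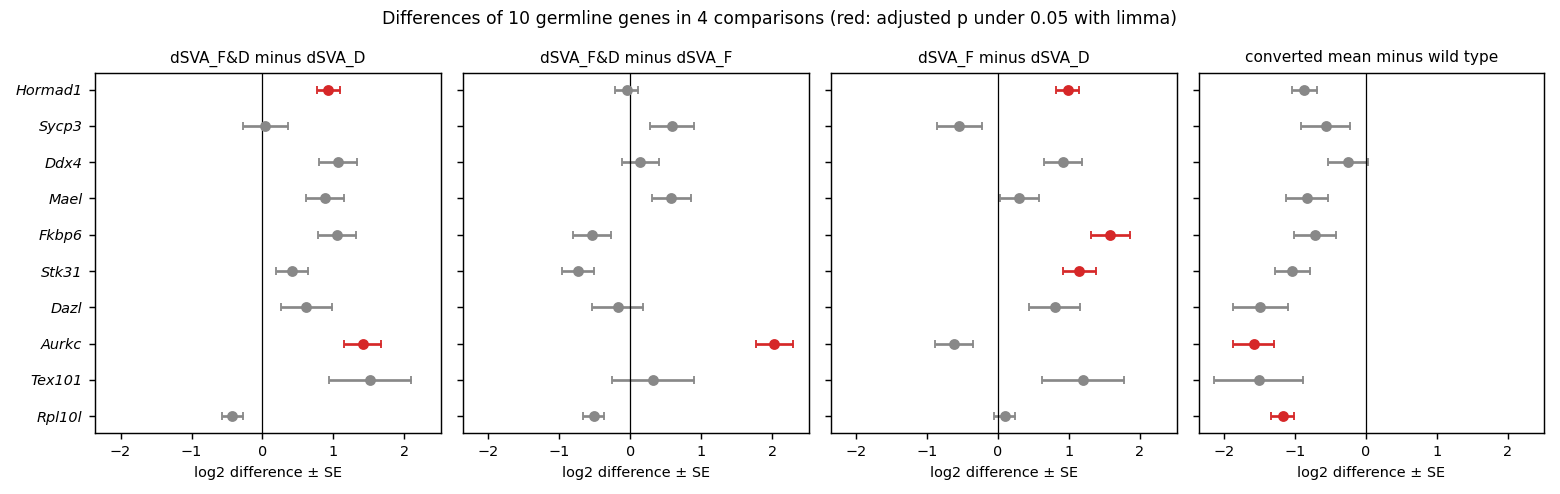
Log2 difference (x axis, points, ± standard error of the limma fit) of 10 germline genes (rows) in 4 comparisons, with calls in red. Calls are Hormad1 and Aurkc for conv-dSVA_F&D minus conv-dSVA_D, Aurkc for conv-dSVA_F&D minus conv-dSVA_F, Hormad1, Fkbp6 and Stk31 for conv-dSVA_F minus conv-dSVA_D, and Aurkc and Rpl10l against the wild type.

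**Figure D4:**
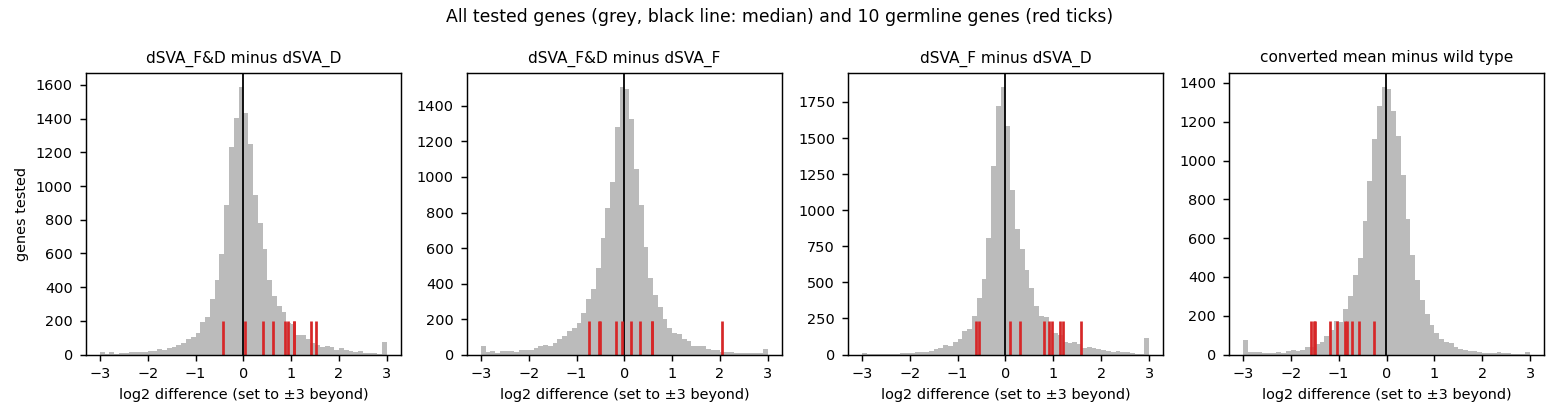
Number of tested genes (y axis) by log2 difference (x axis, values beyond 3 drawn at 3) in 4 comparisons, with the median of all genes as a black line and the 10 germline genes as red ticks. Against the wild type all 10 ticks lie below 0, and between conv-dSVA_F&D and conv-dSVA_F 5 lie on each side.

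The 10 genes did not move as one block. Pearson r of log2 levels over the 7 libraries is given as a description, since libraries of a group share their line. It was 0.92 between Hormad1 and Tex101 and between Fkbp6 and Stk31, and 0.88 between Hormad1 and Ddx4. It was 0.78 between Aurkc and Sycp3, but 0.11 between Aurkc and Stk31 and -0.26 between Sycp3 and Ddx4. Against the mean of the other 9, r was highest for Tex101 (0.95) and lowest for Sycp3 (0.29) and Rpl10l (0.43).

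Averaged over the 10 genes as log2 levels centred on each gene's mean, the wild type stood at 0.86, conv-dSVA_F at 0.10 and -0.11, conv-dSVA_D at -0.60 and -0.57, and conv-dSVA_F&D at 0.34 and -0.02. Among the 9461 other protein-coding genes whose mean reached 100, 84 had r above 0.9 with this profile over the 7 libraries. The 5 most alike were Tmem132c (0.996), Xrcc4, a DNA end-joining factor (0.98), Ankrd45 (0.98), the mitochondrial fission factor gene Mff (0.98) and the fatty acid elongase gene Elovl6 (0.98). Tmem132c stood at 307 in the wild type, 155 and 113 in the conv-dSVA_F pair, 78.7 and 81.6 in that of conv-dSVA_D, and 188 and 134 in that of conv-dSVA_F&D.

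Markers of the 2-cell-like state, a rare stem cell state with transcripts of the early embryo, were also highest in the wild type and lowest in conv-dSVA_D. The summed level of 8 such markers was 2501 in the wild type, 960 and 591 in the conv-dSVA_F pair, 73.9 and 93.9 in that of conv-dSVA_D, and 770 and 481 in that of conv-dSVA_F&D. In conv-dSVA_D replicate 1, Tcstv3 and Zfp352 were at 0, and no marker was at 0 in the other 6 libraries. Of the 8, relative to conv-dSVA_D 5 were called higher in conv-dSVA_F&D (Tmem92 by 3.55 ± 0.42, Zscan4a by 3.37 ± 0.44, Zscan4d by 2.42 and Zscan4c by 2.56 among them), and 5 were called higher in conv-dSVA_F than in conv-dSVA_D. The converted mean was called lower than the wild type for 4. Of all tested genes, 3.16%, 1.35% and 1.15% were called in either direction in these comparisons, in that order. EdgeR called 5, 6 and 8 of the 8 markers and DESeq2 8, 7 and 8, and all 8 had an unadjusted p under 0.05 in each. Zscan4 genes are near-identical copies that may share reads. The part of 2-cell-like cells in the levels of the germline genes was not tested.

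Of 16 other genes of the piRNA pathway and transposon defence, 13 were tested, and Tdrd12 was the only one limma called. Of all tested genes, limma called 3.16% for conv-dSVA_F&D minus conv-dSVA_D and 3.92% for conv-dSVA_F&D minus conv-dSVA_F. It called 1.35% for conv-dSVA_F minus conv-dSVA_D and 1.15% against the wild type. DESeq2 called 2 of the 13 for conv-dSVA_F&D minus conv-dSVA_D and 3 for conv-dSVA_F&D minus conv-dSVA_F, and edgeR 1 in each. Tdrd12, a Tudor-domain protein of piRNA production, stood at 2164 in the wild type, 405 and 631 in the conv-dSVA_F pair, 559.8 and 573 in that of conv-dSVA_D, and 1354 and 1860 in that of conv-dSVA_F&D. Both conv-dSVA_F&D libraries lay between the wild type and the 4 libraries of conv-dSVA_F and conv-dSVA_D, as they did for Aurkc. In conv-dSVA_F&D, Tdrd12 exceeded conv-dSVA_F by 1.65 ± 0.22 (adjusted p = 0.0117) and conv-dSVA_D by 1.48 ± 0.22 (adjusted p = 0.0139), and its converted mean was below the wild type (-1.49 ± 0.24, adjusted p = 0.0312). For conv-dSVA_F minus conv-dSVA_D none of the 13 was called with limma (1 before adjustment at 0.05, against 16.7% of all tested genes, edgeR 0, DESeq2 1). List medians lay between -0.30 and 0.11 over the 4 comparisons. At unadjusted p under 0.05 there were 5 for conv-dSVA_F&D minus conv-dSVA_D and 5 for conv-dSVA_F&D minus conv-dSVA_F (19.8% and 20.7% of all tested genes). All of these but Tdrd12 were lower in conv-dSVA_F&D. Tex15 (-0.61 and -0.60) and Gtsf1 (-0.81 and -0.69), named after their values were seen, were among them in both comparisons.

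Of 21 other meiotic chromosome genes, 16 were tested, and Stag3 was the only one limma called. Its calls were for conv-dSVA_F&D minus conv-dSVA_D and conv-dSVA_F&D minus conv-dSVA_F, where limma called 3.16% and 3.92% of all tested genes. For conv-dSVA_F&D minus conv-dSVA_D edgeR called 2 of the 16 and DESeq2 3, and for conv-dSVA_F&D minus conv-dSVA_F each called 1. Stag3, a meiotic cohesin subunit, went opposite to most of the 10: it stood at 595 in the wild type, 780.3 and 823 in the conv-dSVA_F pair, 1057 and 1333 in that of conv-dSVA_D, and 519 and 433 in that of conv-dSVA_F&D. Stag3 was lower in conv-dSVA_F&D, by -1.32 ± 0.17 against conv-dSVA_D (adjusted p = 0.00942) and less so against conv-dSVA_F (-0.76 ± 0.17, adjusted p = 0.0408, and 0.0577 with chromosome medians set equal). With limma no gene of the list was called for conv-dSVA_F minus conv-dSVA_D (2 before adjustment at 0.05, edgeR 0, DESeq2 0) or against the wild type (4, 0 and 1). Of all tested genes, 16.7% and 18.7% had an unadjusted p under 0.05 there. List medians were -0.15 for conv-dSVA_F&D minus conv-dSVA_D, -0.18 for conv-dSVA_F&D minus conv-dSVA_F, 0.13 for conv-dSVA_F minus conv-dSVA_D and -0.41 against the wild type. Stra8, the retinoic acid target that opens meiosis, is named here after its values were seen. It stood at 443 in the wild type, 184 and 244 in the conv-dSVA_F pair, 107 and 110.2 in that of conv-dSVA_D, and 441 and 196 in that of conv-dSVA_F&D. Limma called Stra8 in no comparison (1.43 ± 0.35 for conv-dSVA_F&D minus conv-dSVA_D, adjusted p = 0.0604). In that comparison 6 of the 16 had an unadjusted p under 0.05, against 19.8% of all tested genes. These ran both ways, and Syce1, also named after its values were seen, was lower (-0.87 ± 0.25, adjusted p = 0.0909).

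All 15 PRC1.6 genes were tested, and Tfdp1, which encodes the DP partner of E2F6, was the only one limma called. Its calls were for conv-dSVA_F minus conv-dSVA_D and conv-dSVA_F&D minus conv-dSVA_F, where limma called 1.35% and 3.92% of all tested genes. DESeq2 called 2 of the 15 for conv-dSVA_F minus conv-dSVA_D and 1 for conv-dSVA_F&D minus conv-dSVA_F, and edgeR 1 in each. Tfdp1 was higher in conv-dSVA_F than in conv-dSVA_D (0.74 ± 0.11, adjusted p = 0.0193) and, relative to that line, lower in conv-dSVA_F&D (-0.84 ± 0.11, adjusted p = 0.0114). It lies on chromosome 8, whose median log2 difference from the wild type was 0.67 and 0.49 in the conv-dSVA_F pair, 0.08 and 0.29 in that of conv-dSVA_D, and 0.06 and 0.03 in that of conv-dSVA_F&D. With chromosome medians set equal both calls were lost (0.34, adjusted p = 0.193, and -0.31, adjusted p = 0.208). Limma called none of the 15 for conv-dSVA_F&D minus conv-dSVA_D (3 before adjustment at 0.05, edgeR 0, DESeq2 1), and none against the wild type (2, 0 and 0). Of all tested genes, 19.8% and 18.7% had an unadjusted p under 0.05 there. E2f6 itself stood between 451 and 595 and Mga between 6538 and 9548 over the 7 libraries.

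None of 10 genes of DNA methylation and its removal was called with limma in any comparison, where 1.15% to 3.92% of all tested genes were. At unadjusted p under 0.05 there were 3 for conv-dSVA_F&D minus conv-dSVA_D, 1 for conv-dSVA_F&D minus conv-dSVA_F, 1 for conv-dSVA_F minus conv-dSVA_D and 5 against the wild type. In that order the shares of all tested genes were 19.8%, 20.7%, 16.7% and 18.7%. The 5 against the wild type, named after their values were seen, were all higher in the converted lines. They were Uhrf1 (0.46), Tet1 (0.53), Tet2 (0.39), Tet3 (0.98) and Tdg (0.71). EdgeR called 0 in each, and DESeq2 called 1, 0, 1 and 1. The maintenance methyltransferase gene Dnmt1 stood at 6824 in the wild type and 7014 to 8321 in the converted libraries. The de novo methyltransferase gene Dnmt3b, named after its values were seen, was 2340.1 in the wild type, 2934 and 2860 in the conv-dSVA_F pair, 1981 and 1261 in that of conv-dSVA_D, and 2435 and 2743 in that of conv-dSVA_F&D (0.87 ± 0.19 for conv-dSVA_F minus conv-dSVA_D, adjusted p = 0.0564). List medians were -0.09 for conv-dSVA_F&D minus conv-dSVA_D, -0.11 for conv-dSVA_F&D minus conv-dSVA_F, -0.08 for conv-dSVA_F minus conv-dSVA_D and 0.35 against the wild type. Of 7 genes of histone H3 lysine 9 methylation none was called with limma in any comparison (per comparison at most 2 before adjustment, edgeR 0, DESeq2 at most 1).

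**Figure D5:**
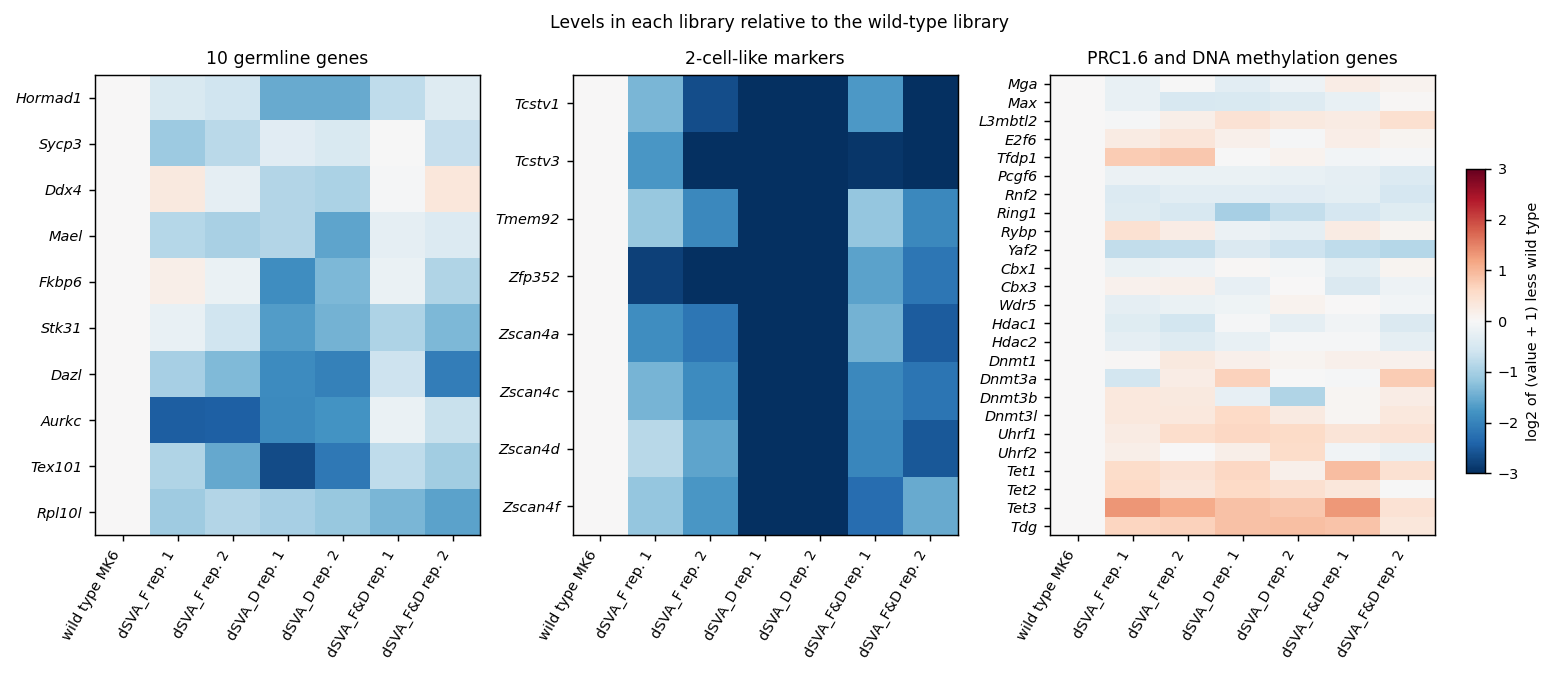
Log2 of the normalized count plus 1 less that of the wild-type library (colour, drawn at -3 or 3 beyond) for 10 germline genes, 8 markers of the 2-cell-like state and 25 genes of PRC1.6 and DNA methylation (rows) in 7 libraries (columns). The 2-cell-like markers are lowest in both conv-dSVA_D libraries, where summed levels were 73.9 and 93.9. No gene of DNA methylation was called with limma in any comparison, where 1.15% to 3.92% of all tested genes were.

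Of the 7 pluripotency markers limma called only Nanog, lower for conv-dSVA_F&D minus conv-dSVA_D (-0.65 ± 0.13, adjusted p = 0.0282). EdgeR and DESeq2 each called 1 there, and 1 had an unadjusted p under 0.05. At that level there were 2 for conv-dSVA_F&D minus conv-dSVA_F. There were 5 for conv-dSVA_F minus conv-dSVA_D and 3 against the wild type (edgeR 0 and DESeq2 2 in each). Of 7 markers of primordial germ cells, none was called with limma in any comparison, where 1.15% to 3.92% of all tested genes were. Per comparison at most 1 had an unadjusted p under 0.05, against 16.7% to 20.7% of all. EdgeR called 0 and DESeq2 at most 1. The summed level of the 7 was 4506 in the wild type and 3987 to 6195 in the converted libraries. Of 6 markers of gonadal somatic cells 1 passed the filter, with sums of 39.4 to 61.3 over the 7 libraries. The summed level of 8 fibroblast markers was 339 in the wild type, 157 and 187 in the conv-dSVA_F pair, 234 and 248 in that of conv-dSVA_D, and 136 and 150.4 in that of conv-dSVA_F&D. The sum was highest in the wild type, but its markers did not run one way. Col1a1, Col1a2, Col3a1 and Postn were higher in the wild type than in every converted library: Postn stood at 57.85 there and at 0 in the others, and Col1a2 at 96.05 and at 0 to 8.36. Fbn1 ran against this, with 72.04 in the wild type and higher values in 5 of the 6 converted libraries, up to 208 in conv-dSVA_D. Thy1 stood at 29.47 in the wild type and at 5.49 to 46.8 in the converted libraries, Dcn at 0 outside conv-dSVA_F (4.25 and 1.02), and Lum at 0 throughout. Of the 4 markers tested, limma called none against the wild type (1 before adjustment, edgeR 1, DESeq2 0). Of all tested genes 1.15% were called there and 18.7% had an unadjusted p under 0.05. The part of such cells in the comparison with the wild type was not tested.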

How the data were processed

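Stranded total RNA libraries of 7 stem cell samples were analysed. The deposited table holds a signal per gene, the count of reads divided by a size factor of each library by the authors. Tools in the submitters' processing notes are featureCounts 1.6.3, STAR 2.7.3, DESeq2, Trimmomatic 0.36, deepTools 3.1.0 and Picard 2.18.20, with mm10. Reads were recovered from the steps of the values, within 0.1 read of a whole number for 100% of positive values, and a floor of 3 reads equals 2.45 to 4.18 normalized counts. Values plus 1 were log2-transformed and fitted with limma 3.58.1 (R 4.3.3; 4 group means, variance trend, two-sided, Benjamini-Hochberg adjustment) over 15240 genes with a mean of at least 10. Alternatives were a pseudocount of 0.5 or 5, no filter, no trend, edgeR 4.0.16 and DESeq2 1.42.0 on the recovered reads, chromosome medians set equal, only the libraries of both sides, each replicate left out, and scaling to the total of recovered reads. The script was tested on simulated data. The labels number no replicates, so numbers follow accession order. Named genes were the 10 members, Taf1, up to 4 called genes per list and comparison, and the 5 genes most like the mean profile; other genes, such as Rpl10, E2f6, Mga, Dnmt1, Dnmt3b, Stra8, the fibroblast markers and genes that overlap or share sequence with a member, were named after their values were seen. The members and lists were chosen with earlier results of these data known. Gene positions and shared windows come from the GENCODE M21 annotation and transcripts on GRCm38.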

Additional observations from a re-analysis of the deposited data

How the results depend on the processing

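No paired analysis was possible because the labels give the replicates no numbers. The count of the 10 genes called for conv-dSVA_F&D minus conv-dSVA_D was 2, and 0 without a low-value filter or variance trend, 4 with DESeq2, and 0 to 3 on leaving out 1 library. For conv-dSVA_F&D minus conv-dSVA_F it was 1, and 0 without filter or trend and 0 to 2 on leaving out 1 library. For conv-dSVA_F minus conv-dSVA_D it was 3, and 0 without filter or trend and 0 to 4 on leaving out 1 library. Against the wild type it was 2, and 0 without trend, 4 with edgeR or DESeq2, and 0 to 5 on leaving out 1 library. Each 0 is from limma, and members at unadjusted p under 0.05 stand in the report.

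Of all genes, 482 were called for conv-dSVA_F&D minus conv-dSVA_D, with 0 without filter (3823 at unadjusted p under 0.05), 0 without trend (2452), 463 with edgeR, 1041 with DESeq2, 281 from the libraries of both sides and 0 to 769 on leaving out 1 library. For conv-dSVA_F&D minus conv-dSVA_F 597 were called (260 higher, 337 lower), with 0 without filter (4058), 0 without trend (2535), 553 with edgeR, 1211 with DESeq2, 179 with chromosome medians set equal (128 higher, 51 lower), 301 from the libraries of both sides and 0 to 881 on leaving out 1 library. For conv-dSVA_F minus conv-dSVA_D 205 were called, with 0 without filter (3451), 1 without trend, 225 with edgeR, 729 with DESeq2, 528 from the libraries of both sides and 0 to 488 on leaving out 1 library. Against the wild type 175 were called, with 275 at a pseudocount of 5, 906 without filter, 1 without trend, 305 with edgeR, 857 with DESeq2 and 2 to 599 on leaving out 1 library. The fit to the libraries of both sides was not run there, being the same as the reported one. The cause of these changes was not tested.

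Signs turned only for values that were not called with all libraries. On leaving out 1 library, conv-dSVA_F&D minus conv-dSVA_D ran from -0.30 (without conv-dSVA_F&D replicate 1; -0.02 lacking conv-dSVA_D replicate 2) to 0.38 for Sycp3, and from -0.11 (conv-dSVA_F&D replicate 1 left out) to 1.34 for Dazl. For conv-dSVA_F&D minus conv-dSVA_F the range was -0.24 to 0.13 for Hormad1 (0.03 without conv-dSVA_F replicate 1), -0.14 to 0.42 for Ddx4 (-0.05 without conv-dSVA_F&D replicate 2), -0.90 to 0.55 for Dazl (0.0049 with edgeR) and -0.00027 to 0.65 for Tex101. For conv-dSVA_F minus conv-dSVA_D it was -0.052 to 0.65 for Mael and -0.0017 to 0.18 for Rpl10l. Scaled to total reads, the log2 ratio of Fkbp6 in conv-dSVA_F to the wild type was 0.10. Groups of 2 and 1 wild-type library limit every comparison.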
